A study of Mus musculus with 3 samples.

Results

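The genes described here are the mouse RING finger (Rnf), tripartite motif (Trim) and membrane-associated RING-CH (March, written Marchf in current mouse names) genes, most of which encode E3 ubiquitin ligases. They were taken as every gene whose array symbol starts with Rnf, Trim, March or Marchf followed by a digit and whose probe sets name that gene alone, and Rnf17 and Rnf212 were left out. This gave 149 genes on 155 probe sets, of 19938 named genes in all: 79 Rnf, 59 Trim and 11 March genes. The choice uses names, not levels. It also takes in Trim30e-ps1, a pseudogene.

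RNA came from testis tubules of 30-day-old male BALB/c mice, wild type per the labels, and was hybridised to Affymetrix Mouse Gene 1.0 ST arrays. The 3 arrays are replicates 1, 2 and 3 of 1 group labelled as spermatids, the haploid germ cells that follow meiosis, and no treatment, mutation or control group was part of the series. The preparation described in the labels filters a homogenate to single cells without a sorting step, and nothing says that the replicates came from separate mice, so the spread between arrays may be technical. Values are levels on the log2 scale after Robust Multichip Average (RMA) processing by the authors.

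A RING domain holds zinc ions and places a ubiquitin-loaded E2 enzyme next to a substrate, so that ubiquitin passes to the substrate directly. In the RBR subgroup (RING-between-RING) the ubiquitin is first handed to a cysteine of the ligase itself. TRIM proteins join a RING to B-boxes and a coiled coil, and MARCH proteins carry a variant RING on a membrane protein. In male germ cells, ubiquitin ligases are known for marking histones before they are replaced by protamines, for DNA break repair in meiosis and for building the acrosome and tail.

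Transcription start windows are shown for 5 of these genes, picked as examples that differed widely in CG dinucleotides at their starts. All 5 were above the background level defined below. Each window is the RefSeq sequence of assembly GRCm38.p6 from 250 bases before to 50 bases after the annotated start, 5′ to 3′ on the gene's strand, with every CG in capitals. Trim37 (chr11:87126825-87127124, + strand) held 41 CG dinucleotides and Marchf10 (chr11:105456686-105456985, - strand) held 22. Rnf151 (chr17:24718008-24718307, - strand) held 3, Rnf133 (chr6:23650256-23650555, - strand) held 1 and Rnf148 (chr6:23655087-23655386, - strand) held 0.
Trim37: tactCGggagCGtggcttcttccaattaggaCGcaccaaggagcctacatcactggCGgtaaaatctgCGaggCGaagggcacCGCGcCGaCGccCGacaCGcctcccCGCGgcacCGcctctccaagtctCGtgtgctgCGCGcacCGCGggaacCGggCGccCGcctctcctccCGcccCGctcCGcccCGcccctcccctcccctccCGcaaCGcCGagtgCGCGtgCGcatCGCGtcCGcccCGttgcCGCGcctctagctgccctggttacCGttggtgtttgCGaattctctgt
Marchf10: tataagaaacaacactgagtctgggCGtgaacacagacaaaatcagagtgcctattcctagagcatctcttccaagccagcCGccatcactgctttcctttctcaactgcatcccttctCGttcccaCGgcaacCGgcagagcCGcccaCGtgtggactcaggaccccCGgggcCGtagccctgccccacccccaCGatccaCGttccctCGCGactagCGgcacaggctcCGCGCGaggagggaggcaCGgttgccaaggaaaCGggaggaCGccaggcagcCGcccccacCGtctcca
Rnf151: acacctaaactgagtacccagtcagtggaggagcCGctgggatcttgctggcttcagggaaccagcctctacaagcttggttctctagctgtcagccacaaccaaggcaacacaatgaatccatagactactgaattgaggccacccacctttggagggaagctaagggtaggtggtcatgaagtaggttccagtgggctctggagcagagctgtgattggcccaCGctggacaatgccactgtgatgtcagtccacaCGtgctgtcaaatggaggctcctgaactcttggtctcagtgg
Rnf133: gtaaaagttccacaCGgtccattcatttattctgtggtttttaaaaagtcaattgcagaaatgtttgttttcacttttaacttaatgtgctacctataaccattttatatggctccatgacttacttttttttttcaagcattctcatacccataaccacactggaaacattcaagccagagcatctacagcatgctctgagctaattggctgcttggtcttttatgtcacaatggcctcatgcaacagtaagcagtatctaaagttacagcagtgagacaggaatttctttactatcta
Rnf148: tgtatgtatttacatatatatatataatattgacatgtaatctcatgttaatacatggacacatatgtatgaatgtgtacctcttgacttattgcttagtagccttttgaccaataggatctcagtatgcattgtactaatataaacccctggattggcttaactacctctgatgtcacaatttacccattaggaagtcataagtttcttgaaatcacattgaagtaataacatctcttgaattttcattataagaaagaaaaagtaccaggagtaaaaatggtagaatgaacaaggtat

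The label was checked against marker genes first. All 5 round and all 6 elongating spermatid markers were above background, as were all 6 spermatocyte markers. Of the spermatogonial markers 1 of 6 was, Kit at 8.24. Markers of somatic cells were present too, with all 5 measured Leydig markers, 2 of 5 Sertoli markers, 5 of 6 peritubular and stromal markers and 3 of 5 blood and immune markers above background. Mean levels on the 3 arrays ranged from 12.63 to 12.71 for the elongating spermatid list, from 10.54 to 10.67 for the Leydig list and from 8.87 to 8.88 for the Sertoli list. In RNA of a mixed suspension, the cell type that carried a given transcript cannot be told, nor can fewer cells of a type be told from less RNA per cell. The part of somatic cells in the levels below was not tested. Columns correlated at Pearson's r of 0.992 to 0.995 across all probe sets, which are not independent replicates.

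A gene was called above background when limma's one-sided moderated test against a level of 7.98 passed Benjamini-Hochberg adjustment over all named genes at 0.05. That level is the 95th percentile of 211 vomeronasal receptor and hair keratin associated protein genes, which are not expected in testis. Of the 149 genes 77 were called (51.7%), against 7295 of all 19938 named genes (36.6%). Their median level was 8.18, against 7.45 for all named genes. A stricter level of 9.16, the 99th percentile of the same background genes, left 46 of the 149, against 19.3% of all named genes, and a lower one of 7.18 from olfactory receptor genes gave 100, against 55%. Leaving out replicate 1, 2 or 3 gave 70, 74 and 75, against 33.4%, 35.6% and 34.2% of all named genes. Centred arrays gave 78 (36.8% of all named genes), a trended prior 77 (36.6%), the highest probe set of a gene 78 (37.3%) and probe sets of several genes added 68 (30.7%). Without a test, 80 genes had a mean above the level (38.2% of all named genes) and 78 had every array above it (37.6%). The families differed in these counts. Of the Rnf genes 53 of 79 were called (67.1%) with a median of 8.73, of the March genes 6 of 11 (54.5%) with a median of 8.28, and of the Trim genes 18 of 59 (30.5%) with a median of 7.25. No test of these shares was made. A level depends on how well each probe set binds, so the order of genes given here describes the arrays and not the number of transcripts. A gene that was not called is not shown to be absent.

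**Figure D1:**
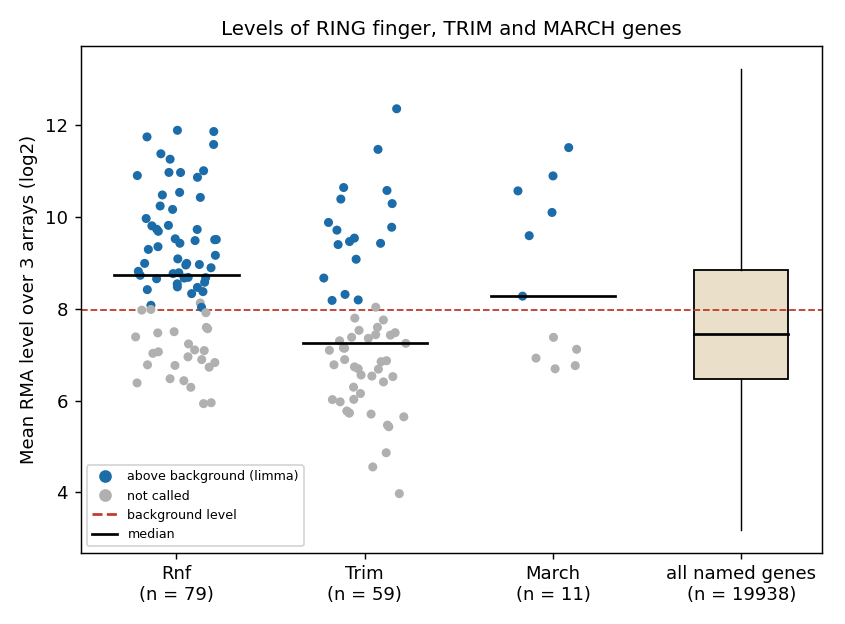
Mean RMA level (log2) over the 3 arrays of each Rnf, Trim and March gene (points, coloured by limma's call), beside all named genes (box from the lower to the upper quartile, line to the lowest and highest gene). The Rnf points centre on 8.73 and the Trim points on 7.25, on either side of the background level of 7.98 (dashed).

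The same counts were set beside those of 3 other groups of ubiquitin genes on these arrays. The median level of 78 deubiquitinating enzyme genes was 8.91 and 55 were called (70.5%). Of 71 F-box genes 29 were called (40.8%) with a median of 7.70, and of 44 cullin and BTB-Kelch genes 18 were called (40.9%) with a median of 7.51. The Rnf share of 67.1% thus lay near that of the deubiquitinating enzymes. At this level the Trim share of 30.5% lay below all of these and below the 36.6% of all named genes. That order depends on the level. At the stricter level of 9.16, 11 of 59 Trim and 11 of 71 F-box genes were called, so the Trim share was no longer the lowest. There, 30 of 79 Rnf, 32 of 78 deubiquitinating enzyme and 10 of 44 cullin and BTB-Kelch genes were called, against 19.3% of all named genes. These shares are descriptions of different gene sets.

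The highest of the 149 genes was Trim37, a peroxisomal and centrosomal ligase that is mutated in human mulibrey nanism. Its levels were 12.35, 12.33 and 12.40 on replicates 1, 2 and 3. Rnf139, an ER membrane ligase of sterol regulation, stood at 11.75, 11.72 and 11.77. Both genes varied by less than 0.1 between arrays. Rnf7, the RING partner of cullin 5, followed with 11.62, 11.39 and 11.73. For Rnf7 this level rests on 1 probe set. The 2 probe sets that name Rnf7 together with Gm35144 lay at 6.39 and 6.85, each equal on all arrays, so the level of Rnf7 is uncertain. Rnf19b, an RBR ligase, was at 11.26 on every array. The other genes among the 10 highest are described with their roles below.

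All 16 measured genes of a list of ligases linked to testis or germ cells were above background, with a list median of 10.51, against 36.6% and a median of 7.45 for all named genes. The list was drawn up from what is known of these genes in testis, so this count is no independent evidence. Rnf19a, also called dorfin, an RBR ligase placed at the coupling of sperm head and tail, was at 11.87, 11.87 and 11.93. Rnf32, a RING-H2 gene known from testis, was at 11.84, 11.79 and 11.96. Both lay on replicate 3 a little above the other arrays. Marchf10, a ligase of elongating spermatids in rat that binds microtubules, was at 11.52, 11.50 and 11.52. Marchf11, a spermatid ligase of membrane protein sorting in rat, is measured by a pair of probe sets that disagree. One gave 11.91, 11.81 and 11.92 and the other 8.32 on every array, a gap of 3.56, so its gene level of 10.10 is uncertain, although both probe sets lay above the background level. Marchf7, or axotrophin, found in rat spermatids, was at 9.59, 9.55 and 9.64.

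Genes linked to the acrosome and to the ER of germ cells belonged to the same list. Trim36, or Haprin, which takes part in the acrosome reaction of mouse sperm, was at 11.45, 11.44 and 11.53. Rnf151, a spermatid protein linked to acrosome formation, was at 10.48, 10.48 and 10.48, and these values differed by less than 0.01. Rnf133, an ER ligase of testis that mouse males need for full fertility, was at 11.38 on all 3 arrays. Rnf148, a close relative of Rnf133, was at 9.95, 9.95 and 9.995. Rnf133 and Rnf148 are next to each other on chromosome 6 in the reference gene table, and their start windows, shown above, held 1 and 0 CG dinucleotides.

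The remaining genes of the list covered a wide range. Trim69, first described as a testis RING finger gene, was at 10.61, 10.61 and 10.70. Rnf141, a RING finger gene known from testis, was at 10.54, 10.49 and 10.58, and its probe sets differed by 0.07. Trim27, the ret finger protein gene, was at 9.72, 9.70 and 9.72. Trim42, a TRIM gene with little known function, was at 9.46, 9.46 and 9.36. Each of these differed between arrays by about 0.1 or less. Trim66, a TIF1 family corepressor of spermatids that binds HP1 proteins, was lowest of the list at 8.18 on every array. Trim17, another testis TRIM gene, shares its only probe set with H2aw, which stood at 9.32 on all arrays, and no level was given to Trim17.

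**Figure D2:**
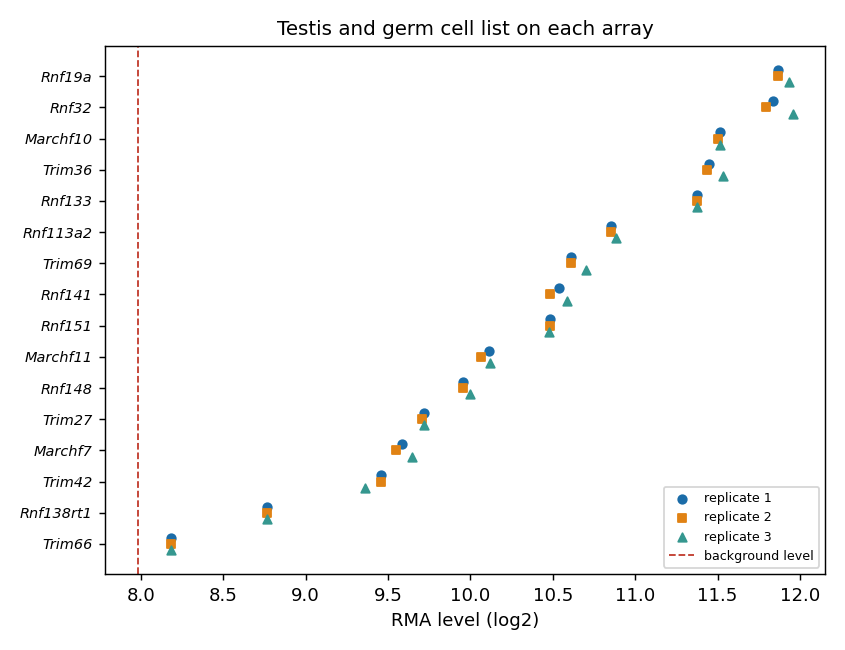
RMA level (log2) of the 16 genes of the testis and germ cell list on replicate 1 (circles), replicate 2 (squares) and replicate 3 (triangles), with the background level of 7.98 as a dashed line. All points lie right of the line, from Trim66 at 8.18 to Rnf19a at 11.89, and the arrays nearly coincide for each gene.

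Of the genes measured, Rnf113a2 and Rnf138rt1 are copies made by retroposition from Rnf113a1 and Rnf138. Rnf113a2 on chromosome 12 was at 10.85, 10.85 and 10.88, while Rnf113a1 on chromosome X, whose human counterpart belongs to the spliceosome, was at 6.39 on all arrays and was not called. Rnf138rt1 on chromosome X was at 8.77 on every array, and Rnf138 on chromosome 18 was at 11.01, 10.93 and 11.08. Copy and parent are read by different probe sets, and related copies can share hybridisation, so no order of their transcripts follows from these levels. The third X-linked gene, Rnf128, was at 6.78 on all arrays and was not called.

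Ligases of chromatin and DNA damage were above background in all 11 measured members, with a list median of 9.78. Of all named genes 36.6% were above background, with a median of 7.45. The list was chosen with earlier results of these data known, so this count is no independent evidence. At the stricter 99th percentile level 8 of the 11 were called, against 19.3% of all named genes. Rnf138, which acts in the resection of DNA breaks, was highest of the list. Rnf168, which ubiquitinates histone H2A at breaks, was at 10.97 on every array, and Rnf4, which ubiquitinates proteins that carry SUMO, was at 10.99, 10.93 and 10.99. Rnf169, which binds ubiquitinated H2A, was lower at 8.68, 8.61 and 8.68. Rnf8, which acts before Rnf168 at breaks and is known for histone ubiquitination in mouse spermatids, has a single probe set that it shares with Gm28043. That probe set was at 7.70 on all arrays, below the background level, and no level was given to Rnf8.

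Other histone ligases of the list lay between these. Rnf20 and Rnf40, which together ubiquitinate histone H2B, were at 9.34, 9.34 and 9.38 and at 8.68 on every array. Rnf2, the H2A ligase of Polycomb complexes, was at 9.48, 9.48 and 9.56. The TIF1 genes were all called. Trim24, a coregulator of nuclear receptors, was at 10.57, 10.57 and 10.60. Trim33, a regulator of SMAD signalling, was at 10.30, 10.28 and 10.31. Trim28, the corepressor of KRAB zinc finger proteins, was at 9.78 on every array. Rnf111, or Arkadia, a ligase of TGF-beta signalling, was at 8.82 on every array.

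**Figure D3:**
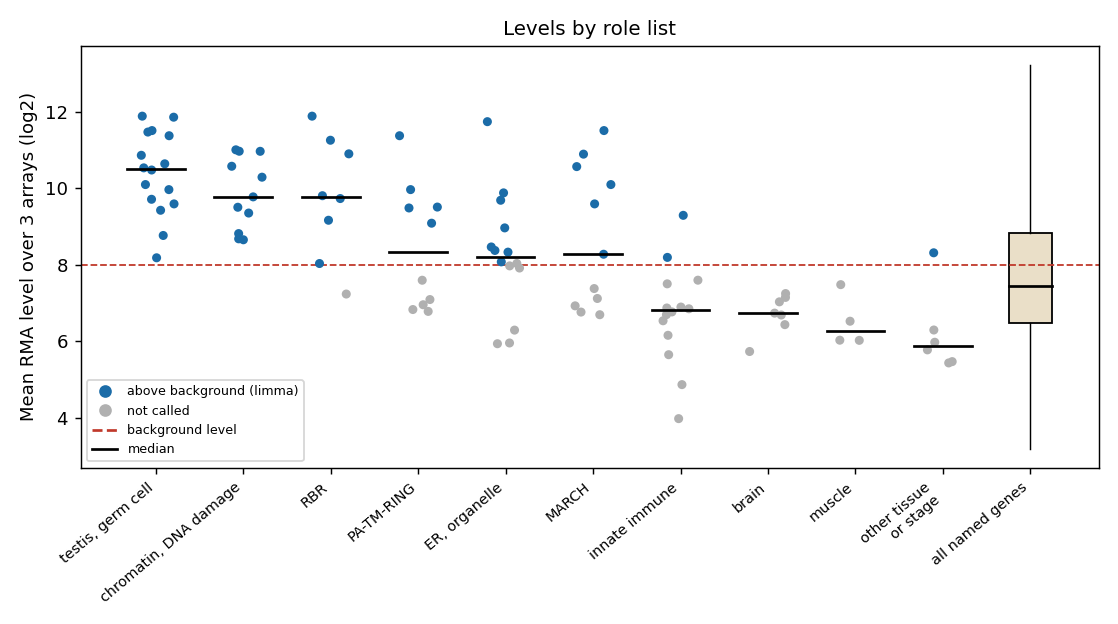
Mean RMA level (log2) over the 3 arrays of the genes of 10 role lists (points, coloured by limma's call; black lines are list medians), beside all named genes (box of quartiles). A gene can stand in more than 1 list. The lists were chosen with earlier results of these data known, so their shares are no independent evidence. The testis and the chromatin lists lie wholly above the background level (dashed), and the muscle and brain lists wholly below it.

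RBR ligases were above background in 7 of 8 members (87.5%), against 36.6% of all named genes, with a median of 9.77. After Rnf19a and Rnf19b came Rnf14, a coactivator of the androgen receptor, at 10.92, 10.86 and 10.92. Rnf216, Rnf144a and Rnf144b were at mean levels of 9.81, 9.73 and 9.17, and Rnf217 was just above the level at 8.03 on all arrays. Rnf31, the catalytic subunit of the linear ubiquitin chain complex, was at 7.23 on all arrays and was the RBR gene not called.

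The PA-TM-RING genes, whose products carry a protease-associated domain and one membrane span, were called in 5 of 10 members (50%), near the 51.7% of all 149 genes and against 36.6% of all named genes, with a median of 8.34. Besides Rnf133 and Rnf148 these were Rnf167, Rnf130 and Rnf13 at 9.51, 9.49 and 9.09. Rnf13 ranged from 8.97 on replicate 2 to 9.22 on replicate 3, and its call was lost without replicate 1 (adjusted p = 0.0558, limma). Rnf128, Rnf43, Rnf215, Rnf150 and Rnf149 were not called, from 6.78 to 7.60, and Rnf43 is known as a ligase that removes Wnt receptors.

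Ligases of the ER and other organelles were called in 8 of 14 members (57.1%), against 36.6% of all named genes, with a median of 8.20. At the stricter level of 9.16 only 2 of the 14 were called, a share below the 19.3% of all named genes. Rnf139 at 11.74 and Trim13 at 9.88 were highest. Rnf170, Rnf103, Rnf121, Rnf145, Rnf185 and Rnf180 followed, from 9.69 down to 8.08. The members not called included Rnf5, an ER quality control ligase, at 7.94, 7.90 and 8.08, just below the level on average. The lowest were Rnf186 and Rnf183, at 5.95 and 5.93.

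Among the MARCH genes the called members apart from Marchf10, Marchf11 and Marchf7 were Marchf6, Marchf5 and Marchf2. Marchf6, the mammalian counterpart of the yeast ER ligase Doa10, was at 10.89, 10.89 and 10.90. Marchf5, a ligase of the mitochondrial outer membrane, was at 10.56, 10.58 and 10.56, and Marchf2 was at 8.28 on all arrays. The remaining 5, Marchf8, Marchf4, Marchf9, Marchf3 and Marchf1, lay between 6.69 and 7.38 and were not called. Marchf1, which controls surface MHC class II in antigen-presenting cells, was the lowest.

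Of the ligases known from other tissues, smaller shares were called than the 36.6% of all named genes. These lists hold mostly Trim genes, of which 30.5% were called in all. They are small and were chosen with earlier results of these data known, so their shares are no independent evidence. None of 4 muscle TRIM genes (Trim54, Trim55, Trim63, Trim72) and none of 7 brain genes was called by limma's adjusted test, 0 of each list had an unadjusted p under 0.05, and 0 had all 3 arrays above the level. Their medians were 6.27 and 6.73, against 7.45 for all named genes, and their highest members were Trim54 at 7.48 and Trim3 at 7.25. Of 14 measured innate immune genes 2 were called (14.3%), Rnf125 at 9.31, 9.31 and 9.25 and Trim25 at 8.19 on every array. Both act on the RIG-I sensor of viral RNA. The other 12 ran from Trim14 at 7.60 down to Trim12a at 3.97. Of 6 measured genes of other tissues or stages only Trim71, known from embryonic stem cells and early germ cells, was called, at 8.37, 8.32 and 8.25 (adjusted p = 0.00752, limma). Its call was lost without replicate 1 (adjusted p = 0.0534, limma) and without replicate 2 (adjusted p = 0.11, limma), which left 0 of 6 genes.

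The 5 lowest genes were Trim12a at 3.97 on every array, Trim30e-ps1 at 4.46, 4.60 and 4.60, Trim30d at 4.86, Trim75 at 5.43 and Trim31 at 5.51, 5.45 and 5.45. Trim12a, Trim30d and Trim30e-ps1 belong to TRIM families of chromosome 7 whose near-identical copies can share probes, so their levels are uncertain. Probe sets that name Trim5 with Trim12c, or with Trim12c and Trim12a, lay at 6.998 and 6.35. A run of 6 neighbouring genes on chromosome 17 in the reference gene table, Trim26, Trim15, Trim10, Trim40, Trim31 and Rnf39, held no called member, with mean levels from 5.47 to 7.53. By limma's test 0 of these 6 had an unadjusted p under 0.05. Elsewhere on chromosome 17, Trim39 was called at 8.67. By chromosome, 3 of the 10 genes on chromosome 17 (30%) and 6 of the 18 on chromosome 7 (33.3%) were called, shares near the 36.6% of all named genes, and 11 of 24 on chromosome 11 (45.8%).

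In all, 54 genes stood in none of the role lists, and 27 of them were called (50%), near the 51.7% of all 149 genes and against 36.6% of all named genes. These were 20 of 31 Rnf and 7 of 23 Trim genes. The Trim genes called were Trim37, Trim44, Trim41, Trim23, Trim32, Trim80 and Trim39. The Rnf genes were led by Rnf7, by Rnf126, a ligase of cytosolic quality control, at 10.43 on every array, and by Rnf220 at 10.29, 10.32 and 10.11. Rnf212b, a relative of the meiotic crossover gene Rnf212, was at 8.48, 8.37 and 8.58 (adjusted p = 0.0131, limma). The call for Rnf212b was lost without any 1 of the arrays (adjusted p from 0.0641 to 0.121, limma).

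Near the background level the calls turned on ties. The genes just above it by mean level were Rnf180 at 8.08 and Rnf217 at 8.03, equal on all arrays and called, and Trim59 at 8.02, 7.92 and 8.17 and Rnf25 at 7.986, 7.967 and 8.0045, which were not called (adjusted p = 0.687 and 1, limma). Rnf223 had a mean of 8.13 and was not called either (adjusted p = 0.128, limma). Just below lay Rnf5, then Rnf26 at 7.86, 7.86 and 8.03, Trim11 at 7.80 and Trim68 at 7.76. The probe sets of Rnf26 differed by 0.92, one of them above the level. For genes with an SD of 0 the test only asks whether the value exceeds the level, and their p-values carry no replicate error.

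Such ties were common. Of the 149 genes 67 had exactly equal values on all 3 arrays (45%), against 9173 of all named genes (46%). Replicates 1 and 2 were equal in 88 genes, replicates 1 and 3 in 97 and replicates 2 and 3 in 70. Equal values also occurred between different genes, and Trim16, Rnf150 and Rnf224 all read 7.09 on replicate 1 to 5 decimals, as Rnf11 and Rnf6 both read 8.99. On replicate 1, 72 of the 149 genes shared their value with some other named gene, against 8946 (44.9%) of all named genes. An SD of 0 therefore reflects the values as deposited and not an absence of error.

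Among the 82 genes that were not tied the median SD was 0.05, against 0.05 for all such named genes. Ranges over 0.2 were found in 14 of the 149 genes (9.40%), against 12.0% of all named genes. The widest were Trim13, an ER membrane TRIM ligase, at 9.81, 9.66 and 10.17, and Trim23, a TRIM ligase with a GTPase domain, at 9.48, 9.26 and 9.66. Their ranges were 0.51 and 0.40. The call for Trim13 was lost without replicate 1 (adjusted p = 0.0683, limma) or replicate 2 (adjusted p = 0.0635, limma), and that for Trim23 without replicate 1 (adjusted p = 0.0702, limma) or replicate 3 (adjusted p = 0.0624, limma). Rnf7, also among the 10 widest, kept its call without any 1 array. The wide genes that were not called lay lower. Rnf186 was at 5.84, 6.18 and 5.84, Trim12c at 5.54, 5.54 and 5.86 and Rnf224 at 7.09, 7.18 and 6.92. Trim10, an erythroid TRIM gene, was at 5.89, 6.13 and 5.89, and Trim21, the cytosolic antibody receptor, at 6.77, 6.54 and 6.77. In these no 1 array was the extreme one throughout. Outside the 10 widest, the call for Rnf187 was lost without replicate 1 or replicate 3 (adjusted p = 0.054 and 0.0754, limma) and that for Rnf146 without replicate 1 (adjusted p = 0.0514, limma), while Rnf223 was called without replicate 3, on which it was lowest.

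The array that differed from the other two was most often replicate 2 or 3. Among the 77 called genes replicate 2 was the single lowest array in 28 (36.4%) and replicate 3 the single highest in 24 (31.2%), against 35.8% and 37.8% of all 7295 called genes. Among the 72 genes not called replicate 2 was the single highest in 17 (23.6%) and the single lowest in 6 (8.33%). Among all 19938 named genes replicate 2 was the single highest in 4243 and the single lowest in 3449. Of these, 428 and 2614 were called genes, so this turn between called and other genes was seen over all named genes. All of the germ cell and somatic marker lists had their lowest mean on replicate 2. The highest was on replicate 3 for the elongating, round spermatid, spermatocyte and Sertoli lists and on replicate 1 for the spermatogonial, Leydig, peritubular and blood lists. Whether this reflects the cells or the arrays was not tested.

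**Figure D4:**
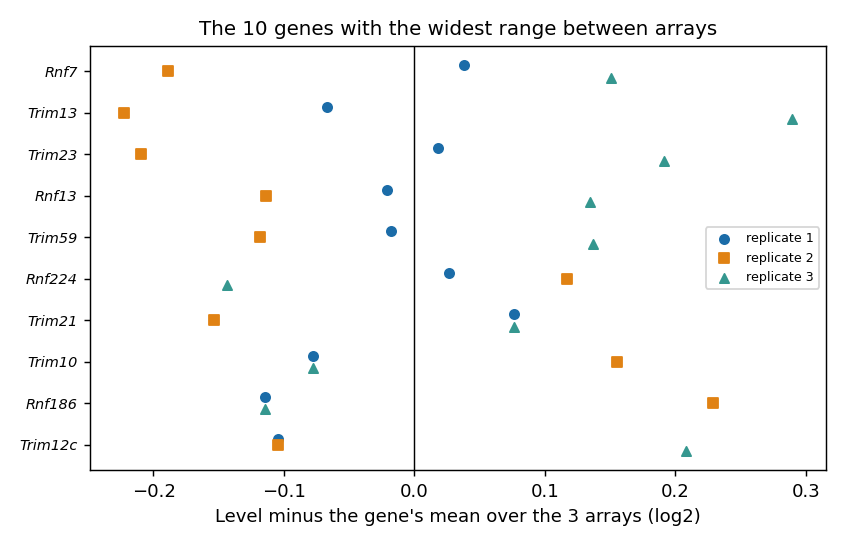
Level on each array minus the gene's mean over the 3 arrays (log2) for the 10 genes with the widest range, ordered from the highest mean level at the top. Trim13, Trim23, Rnf7, Rnf13 and Trim59 are lowest on replicate 2 (squares) and highest on replicate 3 (triangles), while the low genes Rnf186 and Trim10 are highest on replicate 2.

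Start windows were found in the RefSeq table for 119 of the 149 genes, and where a gene had several the first listed was used. CG dinucleotides numbered a median of 22 in the 65 called genes and 10 in the 54 genes not called, against 21 in all called and 9 in all not called named genes. They ranged widely in both, from 0 to 53 in the called genes and from 0 to 48 in those not called. The Rnf windows held a median of 20.5 CG dinucleotides, the March windows 33 and the Trim windows 9. Fewer than 10 were present in 14 of 64 Rnf, 1 of 9 March and 24 of 46 Trim windows. For some genes this depends on the window used. Trim39 was counted with 8 and Trim13 with 1, while other windows of Trim39 held 42 and 43 and another of Trim13 held 18. Trim24 was counted with 33, and its other window held 1.

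Of the 13 testis and germ cell genes with a window, 6 held fewer than 10 CG dinucleotides (46.2%) and 4 held 20 or more, with a median of 12. All 13 were called. Among all named genes with a window 38.2% held fewer than 10, with a median of 15, and among those called 18.8%, with a median of 21. The CG-poor genes were Rnf148, Rnf133, Rnf151, Trim42, Trim66 and Trim69, with 0, 1, 3, 3, 4 and 4. The CG-rich ones were Marchf10, Marchf11, Rnf32 and Marchf7, with 22, 30, 36 and 49. The chromatin and DNA damage list had a median of 23 over 9 genes and a single CG-poor gene, Rnf20, with 1. In the innate immune list, whose levels were mostly below background, 7 of 11 windows held fewer than 10 (63.6%), with a median of 3. Among all named genes not called, 50.3% held fewer than 10, with a median of 9.

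Short motifs were searched on both strands of the same windows. The GC box GGGCGG was present in 44 of the 65 called genes (67.7%) and in 24 of the 54 not called (44.4%), against 61.7% of all called and 42.6% of all not called named genes. The full CRE TGACGTCA was found in 3 of 119 windows (2.52%), against 2.50% for named genes, and in 0 of the 13 testis list windows. TATAAA was found in 3 of those 13 (23.1%), among them Rnf133 and Rnf148. The share was 12.1% in the windows of all named genes, 7.13% in those called and 14.2% in the whole promoter table. In Rnf133 the match starts at base 104, on the strand opposite to the one printed, and in Rnf148 at base 141. The first 250 bases of a window lie before the annotated start. Both of these windows also hold CCAAT, a motif in 38.3% of the windows of named genes. A motif match describes the letters of a window and not a binding site.

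**Figure D5:**
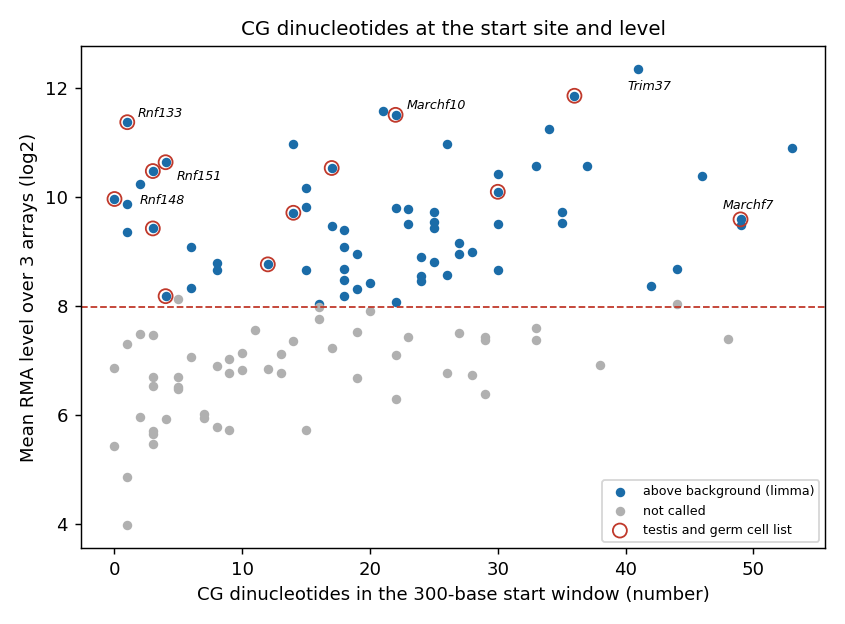
Number of CG dinucleotides in the 300-base start window against the mean RMA level (log2) for the 119 genes with a window, coloured by limma's call, with the 13 genes of the testis and germ cell list ringed in red and the background level dashed. Ringed genes lie at both ends of the axis, from Rnf148 with 0 to Marchf7 with 49.

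Chosen lists of RING ligases outside these families and of E2 enzymes were set beside the 149 genes. These lists do not cover all such genes. Of the 54 measured RING ligases on the first list 33 were called (61.1%), with a median of 8.84. The Rnf, Trim and March genes had 51.7% and 8.18, and all named genes 36.6% and 7.45. Arih1, an RBR ligase that works with cullin complexes, was at 12.33 ± 0.06 (SD, n = 3), and Phf7, a histone H2A ligase of mouse spermatids, was at 12.08 ± 0.12. Rad18, a ligase of DNA damage tolerance, was at 10.67 on all arrays. Rlim, known also as Rnf12, was at 9.47 ± 0.07, and Pml, known also as TRIM19 in human, was at 6.84 and not called. The 21 genes not called also included Brca1 at 8.26 ± 0.12 (adjusted p = 0.0556, limma), Bard1 at 7.63, Ring1 at 7.44 and Ubr2 at 7.30.

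Of the 17 E2 genes chosen for the second list 14 were called (82.4%), with a median of 10.82, against 36.6% and 7.45 for all named genes. This is not a share of all E2 genes. Ube2j1, an ER E2 enzyme needed in mouse spermatids, was at 12.51 ± 0.04 (SD, n = 3). Ube2d3, an E2 enzyme used by many RING ligases, was at 12.09 ± 0.02. Ube2n, which builds ubiquitin chains used in DNA repair, was at 11.11 ± 0.10. Ube2b, a partner of Rnf20 and Rnf40 that mouse males need for fertility, was at 10.98 ± 0.01. Its X-linked relative Ube2a, at 8.25 ± 0.19, was not called (adjusted p = 0.142, limma).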

How the data were processed

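RNA of 3 replicate samples of 1 group was measured on 1 array each. Per the series' design text, the authors derived log2 probe set levels by Robust Multichip Average (RMA) in Affymetrix Power Tools, using mm9-based annotation, and deposited 1 column per sample. RMA equalises the arrays' distributions, so shifts shared by most genes cannot be seen, and the number of arrays limits the precision.

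The platform annotation gave 21789 of 35556 probe sets 1 gene and 1621 several. Symbols were updated by Entrez identifier to assembly GRCm38.p6 (21698 matched, all 149 members among them). Where a gene had several probe sets of its own, their median was used. An intercept model was fitted to all 19938 genes with limma 3.58.1 in R 4.3.3, with empirical Bayes variances, a one-sided test against the background level and Benjamini-Hochberg adjustment. It was run on simulated data with SDs taken from untied genes only. Exact ties were not simulated, so that run says nothing about calls of tied genes. The members, role lists and tests were chosen with earlier results of these data known. Genes named by rule with every array's value were those of the testis and chromatin lists, the 10 highest and 5 lowest, the 10 with the widest range, the 4 on either side of the background level, the retrogene pairs and genes whose probe sets differed by more than 1. Other genes are named, some also with every array's value, as the highest or lowest of a list or by a count, some after their values were seen. Alternatives were 2 other background levels, 2 rules without the test, 2 other uses of probe sets, centred arrays, a trended prior and leaving out each array.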

Additional observations from a re-analysis of the deposited data

How the results depend on the processing

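The count of 77 members above background ranged from 70 to 75 without 1 replicate, and was 46 at the 99th percentile level of 9.16 (19.3% of all named genes) and 100 with the olfactory receptor level of 7.18 (55% of all named genes). At the 99th percentile the counts were 30 Rnf, 11 Trim, 2 ER and organelle, 1 innate immune and 0 other tissue or stage genes. With the olfactory receptor level they were 30 Trim, 4 innate immune, 1 muscle and 1 brain genes. With probe sets of several genes added the background level itself rose to 8.37, 68 members were called, and 1 innate immune and 0 other tissue or stage genes were. Without 1 replicate the counts were 49 to 52 Rnf, 15 to 17 Trim, 6 March, 16 testis and germ cell, 11 chromatin, 7 RBR, 4 to 5 PA-TM-RING, 7 to 8 ER and organelle, 2 innate immune, 0 to 1 other tissue or stage, 0 muscle and 0 brain genes, 32 other RING ligases and 14 E2 genes. Centred arrays gave 78 members, a trended prior 77, the highest probe set 78, means alone 80 and all 3 arrays above the level 78. The median SD between arrays was 0.0101, 0.0145 with centred arrays and 0.00858 with the highest probe set. Of the 65 called members named in the report, the level minus background turned negative at the 99th percentile for Rnf13 (-0.074), Trim80 (-0.083), Rnf6 and Rnf11 (both -0.17), Rnf103 (-0.20), Rnf187 (-0.27), Rnf111 (-0.35), Rnf146 (-0.38), Rnf138rt1 (-0.40), Rnf40 (-0.48), Trim39 (-0.49), Rnf169 (-0.51), Rnf212b (-0.68), Rnf121 (-0.70), Rnf145 (-0.79), Rnf185 (-0.83), Trim71 (-0.85), Marchf2 (-0.89), Trim25 (-0.97), Trim66 (-0.98), Rnf180 (-1.09) and Rnf217 (-1.13). Trim13 and Trim23 stayed above that level without passing the test (adjusted p = 0.0728 and 0.235, limma). When shared probe sets were included it turned negative for Rnf185 (-0.037), Trim71 (-0.054), Marchf2 (-0.092), Trim25 (-0.17), Trim66 (-0.19), Rnf180 (-0.29), Rnf217 (-0.33) and Rnf7 (-1.52), the last through the probe sets shared with Gm35144, and Rnf212b no longer passed (adjusted p = 0.296, limma). No paired analysis was possible because there is 1 group.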
